A study of Mus musculus with 6 samples.

Results

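The genes described here encode the subunits of the nuclear RNA polymerases I, II and III (Pol I, Pol II and Pol III) and the mitochondrial RNA polymerase. They are the rows of the deposited expression table whose symbol starts with Polr1, Polr2, Polr3 or Polrmt, without pseudogenes, and there are 32 of 56691 genes. Of the 32, 31 encode polymerase subunits and 1, Polr1has, is an RNA that the annotation names as antisense to Polr1h. The subunit genes comprise 5 whose products are found only in Pol I, 2 shared by Pol I and Pol III, 10 of Pol III, 5 shared by all nuclear polymerases, 8 of Pol II and the single gene of the mitochondrial enzyme. Cd3eap, the older symbol of a further Pol I subunit gene, does not match the symbol pattern and is given beside the Pol I genes. The cells were 4T1, a mouse mammary carcinoma line, grown overnight and then kept for 4 h in fresh medium with either KIRA6 at 1 µmol/L or vehicle, with 3 libraries in each group. KIRA6 is a kinase inhibitor made to silence IRE1α, the endoplasmic reticulum stress sensor whose kinase domain controls an attached RNase. The study as a whole is about myeloid suppressor cells and anti-PD-1 treatment; these libraries come from the tumour line alone. Libraries are named below by group and replicate number, as in KIRA6 1. Whether they stem from separate cultures is not stated, and each p-value therefore reflects library-to-library spread that may be technical.

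Pol I transcribes the precursor of the large ribosomal RNAs in the nucleolus, Pol II transcribes messenger RNAs, and Pol III transcribes transfer RNAs, the smallest ribosomal RNA and other short RNAs. Each has a pair of large catalytic subunits, a set of small subunits that all nuclear polymerases share, and subunits of its own that act in initiation, elongation and termination. The mitochondrial polymerase is a single polypeptide related to phage enzymes. In growing and tumour cells Pol I and Pol III supply the ribosomes and transfer RNAs for protein synthesis, and MYC is known to raise transcription of many genes of this machinery.

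Promoter windows from RefSeq (GRCm38.p6, 250 bases before to 50 bases after the start) were matched to 26 of the 32 genes and searched on both strands for the E-box CACGTG, the site bound by MYC with its partner MAX. Genes without a matched window were not searched, among them Polr3d and Polr3a, which fell with KIRA6. An E-box was found for 4 of the 26 (15.38%), against 8.09% of all 27025 genes with a window and 12.38% of the 8544 tested genes with one. The 4 genes were Polr2h and Polr3e, which fell with KIRA6, Polr3gl, which rose, and Polr3c, which was not called. The windows of the 3 called genes are shown from 220 bases before to 30 bases after the start, 5′ to 3′ on the gene's strand, with that of Polr1b, the gene with the largest decrease, which has no E-box. Capitals mark the E-box.
Polr2h: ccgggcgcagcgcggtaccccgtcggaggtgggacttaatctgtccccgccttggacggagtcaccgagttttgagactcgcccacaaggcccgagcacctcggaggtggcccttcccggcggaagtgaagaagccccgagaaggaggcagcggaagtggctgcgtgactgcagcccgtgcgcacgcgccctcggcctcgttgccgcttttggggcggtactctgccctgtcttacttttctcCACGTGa
Polr3e: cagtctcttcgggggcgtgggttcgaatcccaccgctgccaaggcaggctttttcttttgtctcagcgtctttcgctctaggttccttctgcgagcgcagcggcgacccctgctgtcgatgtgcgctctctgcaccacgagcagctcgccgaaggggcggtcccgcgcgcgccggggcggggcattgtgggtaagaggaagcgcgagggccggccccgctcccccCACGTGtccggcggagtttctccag
Polr3gl: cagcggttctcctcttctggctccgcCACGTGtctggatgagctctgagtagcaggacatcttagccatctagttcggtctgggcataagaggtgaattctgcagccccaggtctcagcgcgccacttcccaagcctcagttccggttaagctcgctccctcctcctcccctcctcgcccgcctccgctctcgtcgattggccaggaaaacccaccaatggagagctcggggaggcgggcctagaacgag
Polr1b: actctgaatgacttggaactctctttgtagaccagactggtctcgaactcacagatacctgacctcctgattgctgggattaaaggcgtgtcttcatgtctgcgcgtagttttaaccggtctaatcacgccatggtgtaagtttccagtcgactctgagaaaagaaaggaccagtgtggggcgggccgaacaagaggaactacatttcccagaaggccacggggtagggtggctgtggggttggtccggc
The E-box begins at base 24 after the start in Polr2h (plus strand, chr16:20717606-20717855), at base 6 after the start in Polr3e (plus strand, chr7:120917558-120917807) and 194 bases before it in Polr3gl (minus strand, chr3:96594152-96594401). The Polr1b stretch is on the plus strand at chr2:129100776-129101025. A search for CCGGAAG, an ETS-type site chosen after the values were seen, found it in 8 of the 26 (30.77%), against 22.23% of the tested genes with a window. These matches are descriptions of the windows and do not show binding.

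The KIRA6 libraries held an estimated 18215750 to 21346400 fragments assigned to genes and the Vehicle libraries 16497500 to 18581900. The epithelial genes Krt8, Krt18, Epcam and Cdh1 were at 36.04 FPKM or more in all 6 libraries (FPKM, fragment counts scaled by exonic length and library depth). Of the 9 genes of other cell types, 7 were at 0.04 FPKM or less (Ptprc, Cd3e and Itgam of leukocytes, Pdgfrb and Dcn of fibroblasts, Pecam1 and Cdh5 of endothelium). Cd68 was at 3.06 to 3.8 FPKM in KIRA6 and 1.66 to 2.61 FPKM in Vehicle libraries, and Pdgfra at 1.8 to 3.69 FPKM in KIRA6 and 0.39 to 0.71 FPKM in Vehicle libraries. Of 11778 tested genes 23.6% were called by limma at an adjusted p below 0.05, 15.6% higher and 7.98% lower with KIRA6, and the median log2 fold change was 0.16. Median-ratio scaling moved that median to −0.01. It called 1296 genes higher and 1438 lower in place of 1843 and 940, and quantile normalization called 1132 and 1182. Libraries of a group also differed along 1 shared axis with 81.3% of the within-group variance, which set KIRA6 2, KIRA6 3 and Vehicle 3 on one side and KIRA6 1, Vehicle 1 and Vehicle 2 on the other. The labels name no batch. Across tested genes the position on this axis correlated with exonic length (Spearman rho 0.352) and with GC content (rho 0.257), as a description over genes that share the same 6 libraries.

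KIRA6 libraries had lower levels of a subset of Pol I and Pol III subunit genes, while none of the 8 genes whose product is found only in Pol II was called in the fit without added terms. Some Pol II genes were called in other fits, as given with their values below. All 32 genes passed the filter on low values. Of these, 8 fell (25%, where 7.98% of all tested genes fell) and 2 rose (6.2%, where 15.6% of all rose), and 22 were not called. The fallers included Polr1b, Polr1e, Polr1d, Polr3d, Polr3e, Polr3a and Polr2h, and the risers were Polr3gl and the antisense RNA Polr1has. Groups did not overlap for 13 of the 32 genes (40.6%), against 41.8% of all tested genes, and in 11 of these the KIRA6 libraries were lower (34.4%, against 14.1%). The median log2 fold change was −0.26 over the 32 genes and 0.16 over all tested genes. FPKM is a share of each library, and fewer cells expressing a gene cannot be told apart from less RNA per cell. Leaving out 1 library changed the number of calls among the 32. It was 6 without Vehicle 1, 3 without Vehicle 2, 2 without KIRA6 2 and 5 without KIRA6 3. In the same fits 13.8%, 10.8%, 10.3% and 13.2% of all tested genes were called. A term for the side of the shared axis gave 2 higher and 12 lower. With that term 31.5% of all tested genes were called higher and 18% lower. Since the sides were read from these data, a smaller spread was built in. Without KIRA6 1 and Vehicle 3 the counts were 4 higher and 16 lower, with 35.9% of all tested genes called higher and 20.2% lower. The groups then lie on opposite sides of the axis, so that axis and treatment cannot be told apart in that fit. A fit weighting each library (array weights) rested mostly on Vehicle 2 (34.14) and KIRA6 2 (7.757), with the others at 0.6006 or less. Vehicle 2 and KIRA6 2 lie on opposite sides of the axis, so axis and treatment can hardly be told apart there either. The low ends of several ranges of adjusted p below came from the fit with array weights, among them those of Polr1c, Polr2c and Polr3f.

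**Figure D1:**
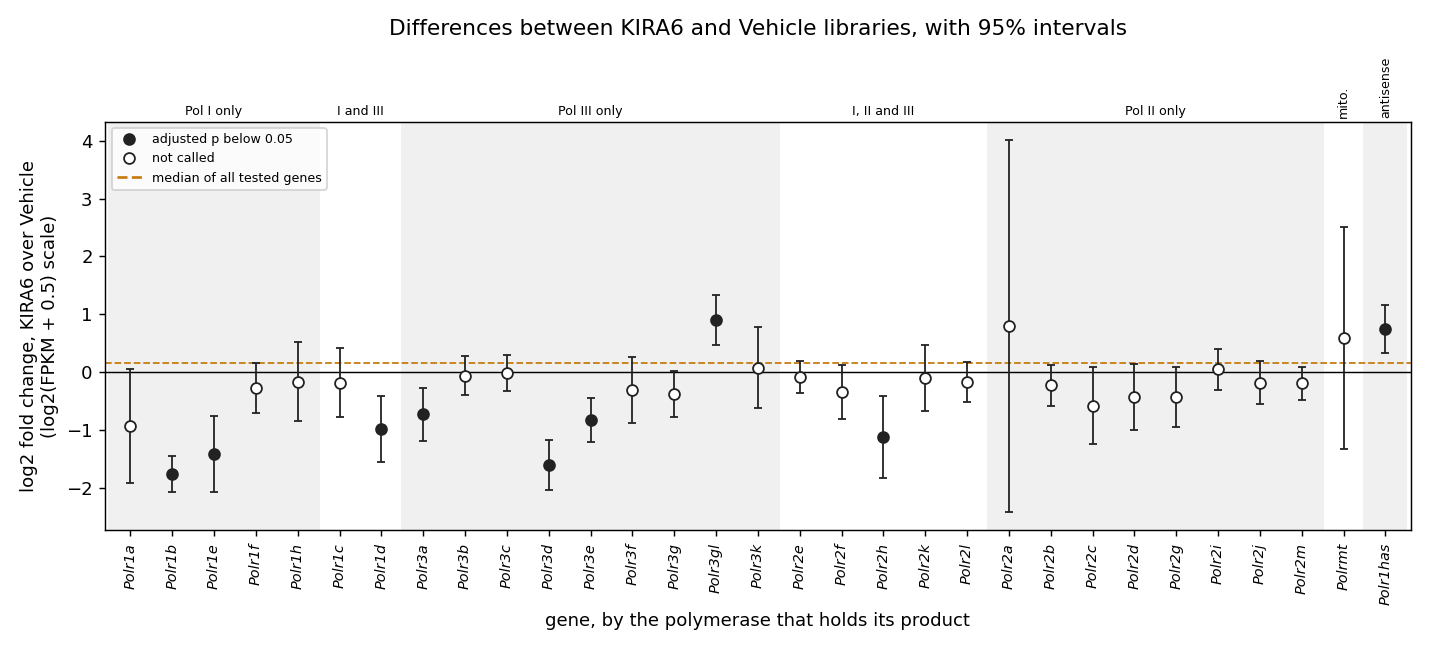
Log2 fold change of 31 of the genes, KIRA6 over Vehicle on the log2(FPKM + 0.5) scale, with limma 95% intervals, ordered by the polymerase that holds the product; filled points were called and the dashed line is the median of all tested genes, 0.16. The called decreases lie among Pol I, Pol III and shared subunits, and the interval of Polr2a runs from −2.42 to 4.01.

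**Figure D2:**
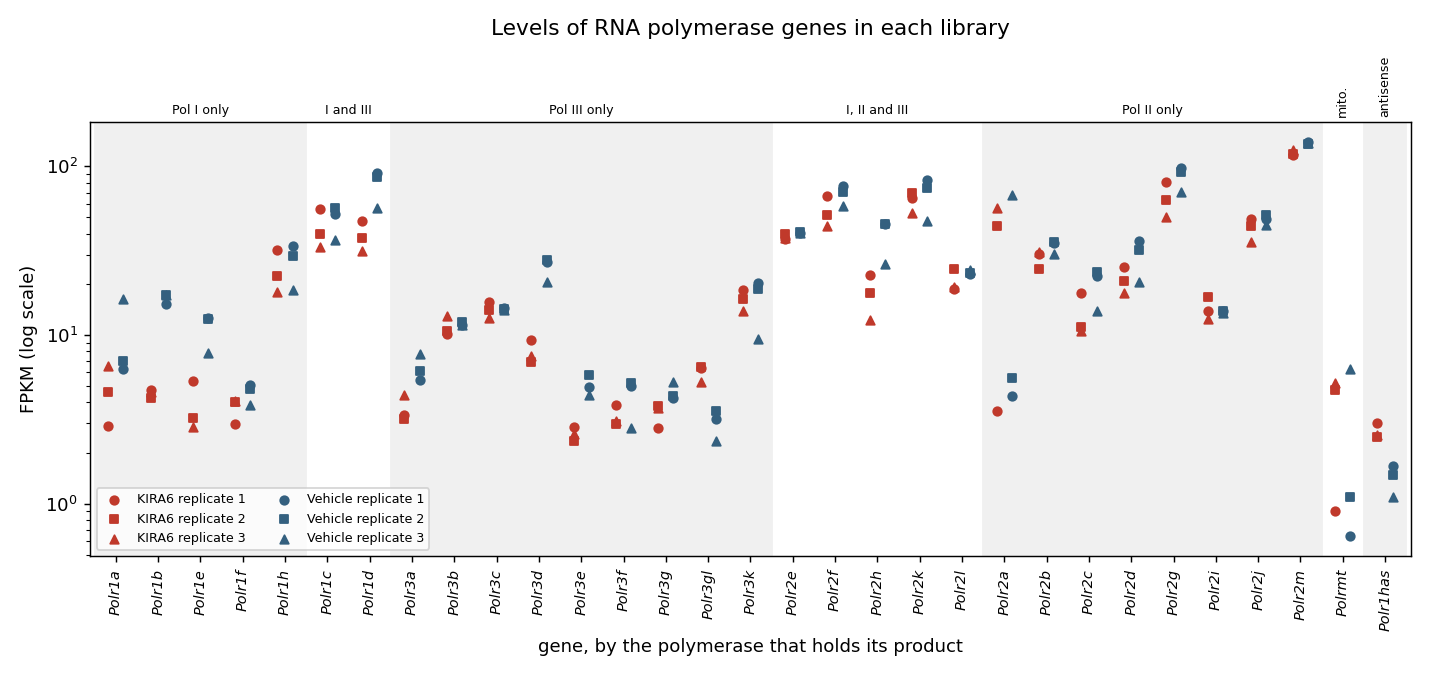
FPKM of 31 of the genes in each of the 6 libraries on a log axis, KIRA6 in red to the left of Vehicle in blue, with the marker giving the replicate number. Polr1b and Polr3d show KIRA6 libraries well below all Vehicle libraries, whereas Polr2a and Polrmt split by library within both groups.

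Pol I showed its clearest difference in Polr1b (ENSMUSG00000027395, chromosome 2, 128942915 to 128968514 on GRCm39), which encodes the next-largest subunit and forms the catalytic centre with the product of Polr1a. Polr1b had 4.75, 4.24 and 4.62 FPKM in the KIRA6 libraries, against 15.35, 17.3 and 17.25 FPKM in the Vehicle libraries. The groups were far apart and each was tight, with means of 4.54 ± 0.265 and 16.6 ± 1.11 FPKM (SD, n = 3 each). The log2 fold change was −1.77 ± 0.13 (limma SE, adjusted p = 0.0006763), a level 0.294 times that in Vehicle, and Polr1b was called in all 19 alternatives run.

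Polr1e, which encodes a Pol I subunit of the initiation and elongation heterodimer, had 5.35, 3.23 and 2.87 FPKM in the KIRA6 libraries, against 12.66, 12.37 and 7.79 FPKM in the Vehicle libraries. All KIRA6 values lay below all Vehicle values, although Vehicle 3 was low within its group. The log2 fold change was −1.42 ± 0.28 (limma SE, adjusted p = 0.01361). The call ended without Vehicle 2 (adjusted p = 0.06017), KIRA6 2 (0.06628) or KIRA6 3 (0.05627), in a range of 3.326e-08 to 0.06628 over 19 alternatives. The strand setting of the counting is not given in the sources used here, and Polr1e overlaps Fbxo10 on the other strand, which was itself called higher with KIRA6 (log2 fold change 0.76, adjusted p = 0.04437). Cd3eap, whose product is the partner of Polr1e in that heterodimer, had 11.52, 11.43 and 10.47 FPKM in the KIRA6 libraries, against 34.72, 35.27 and 32.37 FPKM in the Vehicle libraries. It too was apart in every library, with a log2 fold change of −1.57 ± 0.12 (limma SE, adjusted p = 0.0007236), and was called in all 19 alternatives.

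The remaining Pol I genes were not called in the fit without added terms. Polr1a, the gene of the largest subunit, had 2.89, 4.59 and 6.56 FPKM in the KIRA6 libraries, against 6.26, 7.04 and 16.26 FPKM in the Vehicle libraries, and the groups overlapped at a single pair of libraries. Its log2 fold change was −0.94 ± 0.41 (limma SE, adjusted p = 0.1508). Polr1f, the gene of a stalk subunit that meets the initiation factor RRN3, averaged 3.69 ± 0.630 FPKM in KIRA6 and 4.58 ± 0.656 FPKM in Vehicle libraries (adjusted p = 0.3085). Polr1h, whose product takes part in RNA cleavage, averaged 24.1 ± 7.10 and 27.2 ± 7.84 FPKM in KIRA6 and Vehicle libraries (adjusted p = 0.7239). Without KIRA6 1 and Vehicle 3 Polr1h was called lower (−0.63, adjusted p = 0.005746). Array weights called Polr1a, Polr1f and Polr1h lower (adjusted p = 0.0002424, 0.00146 and 0.0003758). In all, 2 of the 5 Pol I genes fell (40%, against 7.98% of all tested genes). Their median log2 fold change was −0.94, which is that of Polr1a and moved to −0.53 without Vehicle 3.

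Pol I and Pol III share a heterodimer encoded by Polr1c and Polr1d that seeds assembly of the enzyme, and only Polr1d of these 2 genes was called. Polr1d had 47.47, 37.56 and 31.47 FPKM in the KIRA6 libraries, against 91.03, 86.15 and 56.78 FPKM in the Vehicle libraries. No KIRA6 library reached the lowest Vehicle value, and the log2 fold change was −0.99 ± 0.24 (limma SE, adjusted p = 0.02727). Polr1c averaged 42.9 ± 11.6 FPKM in KIRA6 and 48.6 ± 10.4 FPKM in Vehicle libraries, with overlapping groups (log2 fold change −0.19, adjusted p = 0.6377), and was called lower with array weights and without KIRA6 1 and Vehicle 3 (3.762e-05 to 0.973 over 19 alternatives). The call for Polr1d ended without Vehicle 1 (adjusted p = 0.08757), Vehicle 2 (0.1024), KIRA6 2 (0.102) or KIRA6 3 (0.09397) and with no filter on low values (0.05512), in a range of 9.94e-08 to 0.1024 over 19 alternatives. The difference between Polr1c and Polr1d was not tested.

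Pol III had 4 genes that fell and 1 that rose among its 10, with a median log2 fold change of −0.35. These are 40% and 10%, where 7.98% of all tested genes fell and 15.6% rose. Polr3d (ENSMUSG00000000776, chromosome 14, 70676197 to 70680887), which encodes a subunit of the Pol III heterodimer that acts in initiation and termination, fell most. Polr3d had 9.4, 6.89 and 7.47 FPKM in the KIRA6 libraries, against 27.22, 27.71 and 20.76 FPKM in the Vehicle libraries. The highest KIRA6 value lay well below the lowest Vehicle value, and the log2 fold change was −1.61 ± 0.18 (limma SE, adjusted p = 0.002069), called in all 19 alternatives. Its heterodimer partner Polr3e, shown above with its promoter, had 2.87, 2.37 and 2.6 FPKM in the KIRA6 libraries, against 4.94, 5.8 and 4.41 FPKM in the Vehicle libraries. These groups were also apart, with a smaller log2 fold change of −0.83 ± 0.16 (limma SE, adjusted p = 0.01218). The call for Polr3e ended without Vehicle 2 (adjusted p = 0.06338) or KIRA6 2 (0.06543), in a range of 1.334e-07 to 0.06543 over 19 alternatives.

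Polr3a, the gene of the largest Pol III subunit, had 3.37, 3.16 and 4.44 FPKM in the KIRA6 libraries, against 5.42, 6.14 and 7.68 FPKM in the Vehicle libraries. Its groups did not overlap, with a log2 fold change of −0.73 ± 0.19 (limma SE, adjusted p = 0.03457). The call for Polr3a ended without Vehicle 1 (adjusted p = 0.05587), Vehicle 2 (0.107), Vehicle 3 (0.05022), KIRA6 1 (0.08488) or KIRA6 2 (0.1355), with no filter on low values (0.06422) and on the TPM scale (0.05846), in a range of 1.11e-06 to 0.1355 over 19 alternatives.

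The other Pol III genes described next gave no call in the fit without added terms. Polr3b, the gene of the next-largest subunit, had 10.09, 10.5 and 12.95 FPKM in the KIRA6 libraries, against 11.55, 12 and 11.47 FPKM in the Vehicle libraries. These values interleaved, and the log2 fold change of −0.07 had a 95% interval of −0.41 to 0.27. Array weights called Polr3b lower (−0.17, adjusted p = 0.004092). Polr3c and Polr3f, whose products belong to the initiation subcomplex, had log2 fold changes of −0.01 (95% interval −0.33 to 0.30) and −0.31. Without Vehicle 3 Polr3f moved to −0.56 and was called (adjusted p = 0.04493; 4.036e-06 to 0.7439 over 19 alternatives). Polr3k, whose product acts in termination and RNA cleavage, averaged 16.3 ± 2.38 FPKM in KIRA6 and 16.2 ± 5.80 FPKM in Vehicle libraries. Its log2 fold change was 0.07 (adjusted p = 0.8934), and −0.11 with median-ratio scaling (adjusted p = 0.8273). Polr3k was called lower with array weights (−0.20, adjusted p = 0.0115) and without KIRA6 1 and Vehicle 3 (−0.36, adjusted p = 0.04066).

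Polr3g and Polr3gl encode alternative versions of 1 subunit of the initiation subcomplex; Polr3g is known to be abundant in stem and tumour cells, and Polr3gl to be broadly expressed. Polr3gl had 6.34, 6.5 and 5.27 FPKM in the KIRA6 libraries, against 3.2, 3.53 and 2.36 FPKM in the Vehicle libraries. It was the 1 subunit gene that rose, by 0.90 ± 0.18 on the log2 scale (limma SE, adjusted p = 0.01509), with no overlap between groups. Polr3g had 2.82, 3.78 and 3.71 FPKM in the KIRA6 libraries, against 4.26, 4.33 and 5.28 FPKM in the Vehicle libraries. Its groups did not overlap either, but its log2 fold change of −0.38 ± 0.17 (SE) was not called (adjusted p = 0.1492). Polr3g was called lower with quantile normalization (−0.63, adjusted p = 0.02464), the side term (−0.49, adjusted p = 0.00822) and array weights (−0.18, adjusted p = 0.005268); its highest adjusted p among the 19 alternatives was 0.3242. The ratio of Polr3gl to Polr3g was 2.25, 1.72 and 1.42 in the KIRA6 libraries, against 0.751, 0.815 and 0.447 in the Vehicle libraries. Polr3gl was thus the more abundant of the pair per length in every KIRA6 library and the less abundant in every Vehicle library (two-sided exact permutation p = 0.1, the smallest that 3 against 3 libraries allow). The call for Polr3gl ended without KIRA6 2 (adjusted p = 0.07572) and with quantile normalization (0.08688), in a range of 1.041e-06 to 0.08688 over 19 alternatives.

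Of the 5 subunits shared by all nuclear polymerases, 1 gene fell (20%, against 7.98% of all tested genes) and 4 were not called. The median log2 fold change was −0.18. Polr2h, which encodes a small shared subunit and whose E-box is shown above, had 22.57, 17.72 and 12.32 FPKM in the KIRA6 libraries, against 45.5, 45.59 and 26.28 FPKM in the Vehicle libraries. The lowest Vehicle value, in replicate 3, was close to the highest KIRA6 value, and the log2 fold change was −1.13 ± 0.30 (limma SE, adjusted p = 0.03545). The call ended without Vehicle 1 (adjusted p = 0.1053), Vehicle 2 (0.122), KIRA6 2 (0.1111) or KIRA6 3 (0.1093) and with no filter on low values (0.07191), in a range of 1.729e-07 to 0.122 over 19 alternatives. Polr2e was the steadiest shared gene, at 38.2 ± 1.43 FPKM in KIRA6 and 40.6 ± 0.215 FPKM in Vehicle libraries. Every KIRA6 library still lay below every Vehicle library. Its log2 fold change was −0.09 (95% interval −0.36 to 0.18), or 0.01 with quantile normalization. Polr2f, Polr2k and Polr2l had log2 fold changes of −0.35, −0.10 (0.01 with quantile normalization) and −0.18, with adjusted p from 0.2476 to 0.7957. Polr2k was −0.35 without Vehicle 3 and was called lower with the GC and length correction (−0.38, adjusted p = 0.0302; 0.0302 to 0.9858 over 19 alternatives). Polr2f was called lower with array weights and without KIRA6 1 and Vehicle 3 (1.777e-05 to 0.5326 over 19).

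Among the 8 Pol II genes limma called 0, where it called 23.6% of all tested genes, and 0 had an unadjusted p below 0.05. Polr2b, the gene of the next-largest subunit, had 30.13, 24.55 and 30.97 FPKM in the KIRA6 libraries, against 34.96, 35.59 and 30.25 FPKM in the Vehicle libraries. The groups overlapped, and the log2 fold change of −0.23 had a 95% interval of −0.59 to 0.12 (adjusted p = 0.2974). Polr2m, whose product associates with Pol II and restrains initiation, had the highest level of the 32 genes, at 117.49, 118.51 and 125.33 FPKM in the KIRA6 libraries, against 140.41, 134.98 and 138.12 FPKM in the Vehicle libraries. Here the groups did not overlap, yet the log2 fold change was only −0.19 ± 0.12 (limma SE, adjusted p = 0.2859). Polr2c, the gene of an assembly subunit, averaged 13.1 ± 3.94 FPKM in KIRA6 and 19.95 ± 5.34 FPKM in Vehicle libraries (log2 fold change −0.58, adjusted p = 0.1766). Its assembly partner Polr2j had a log2 fold change of −0.19. The stalk genes Polr2d and Polr2g had −0.44 and −0.43 (adjusted p = 0.2391 and 0.1996), and Polr2i, whose product aids transcript cleavage, had 0.05 (−0.14 with median-ratio scaling). A call was not reached for these genes, which does not show that they were unchanged. The GC and length correction called Polr2d, Polr2g and Polr2m lower (adjusted p = 0.03495, 0.02077 and 0.03937), with log2 fold changes of −0.48, −0.48 and −0.37. The side term called Polr2c lower (−0.35, adjusted p = 0.01463), and Polr2a as given below. Array weights called 6 of the 8 lower and 2 higher, in the fit that rested mostly on Vehicle 2 and KIRA6 2. That fit called 84.9% of all tested genes, 33.6% lower and 51.3% higher. Leaving out KIRA6 1 and Vehicle 3 gave 3 lower and 1 higher, in the fit where axis and treatment coincide. There 20.2% of all tested genes were called lower and 35.9% higher. Without Vehicle 3, Polr2c and Polr2d were called lower (adjusted p = 0.04055 and 0.03389), in ranges over 19 alternatives of 6.021e-07 to 0.4214 for Polr2c, 6.73e-06 to 0.5224 for Polr2d and 8.303e-06 to 0.4592 for Polr2g. Polr2b overlaps Igfbp7 on the other strand, which averaged 42.0 FPKM in KIRA6 and 23.0 FPKM in Vehicle libraries. Polr2c likewise overlaps Dok4 and Polr2i overlaps Tbcb, at means of 14.8 and 39.7 FPKM over all libraries, and the part of these overlaps in the values was not tested.

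Polr2a, the gene of the largest Pol II subunit with the C-terminal repeat domain, split the libraries of both groups. Polr2a (ENSMUSG00000005198, chromosome 11, 69624823 to 69649463) had 3.57, 44.44 and 56.83 FPKM in the KIRA6 libraries, against 4.36, 5.53 and 68.03 FPKM in the Vehicle libraries. KIRA6 1 was as low as Vehicle 1 and Vehicle 2, and Vehicle 3 was above KIRA6 2 and KIRA6 3. An estimated 539 to 8934 fragments lay behind each value. Only 7 of the 11778 tested genes had a higher position on the shared within-group axis than Polr2a, and 5 of these were Hspg2, Fasn, Tnrc18, Lama5 and Plec. The ratio of Polr2a to Polr2b was 0.118, 1.81 and 1.84 in the KIRA6 libraries, against 0.125, 0.155 and 2.25 in the Vehicle libraries. The log2 fold change of Polr2a was 0.79 ± 1.344 (limma SE, adjusted p = 0.7157), and it turned to −0.42 (adjusted p = 0.02481) with a term for the side of the axis, in a range of −0.42 to 3.23 over 19 alternatives. The highest of these came from leaving out KIRA6 1 and Vehicle 3, the fit in which axis and treatment coincide.

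Polrmt, the gene of the mitochondrial polymerase, showed the same split at a lower level, with 0.9, 4.71 and 5.22 FPKM in the KIRA6 libraries, against 0.64, 1.1 and 6.27 FPKM in the Vehicle libraries. Its log2 fold change was 0.59 ± 0.81 (limma SE, adjusted p = 0.6489), and −0.13 (adjusted p = 0.5629) with the side term, in a range of −0.13 to 2.02 over 19 alternatives. Its transcripts had a GC content of 59.0%, higher than that of 93.9% of tested genes, whereas Polr2a had 51.7%, near the median of 50.6%. Polr1a followed the same axis less closely, and with the side term its log2 fold change was −1.28 (adjusted p = 0.0001761; 0.0001761 to 0.3047 over 19 alternatives); the GC and length correction also called it (−1.07, adjusted p = 0.02425). In contrast, Polr1b and Polr2b lay near the middle of the axis, at percentiles 55.0 and 40.2 of tested genes. The called decreases of Polr2h, Polr1e and Polr1d lay near its low end, at percentiles 2.05, 2.997 and 7.54. Within their groups, KIRA6 2, KIRA6 3 and Vehicle 3 had the lower levels of these genes. Those of Polr3d, Polr3e and Polr3a lay at percentiles 21.1, 36.1 and 73.1. Polr1h, Polr3k and Polr2c, not called in the fit without added terms, lay at 1.94, 2.54 and 2.88. The part of length, GC content or RNA quality in this split was not tested.

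**Figure D3:**
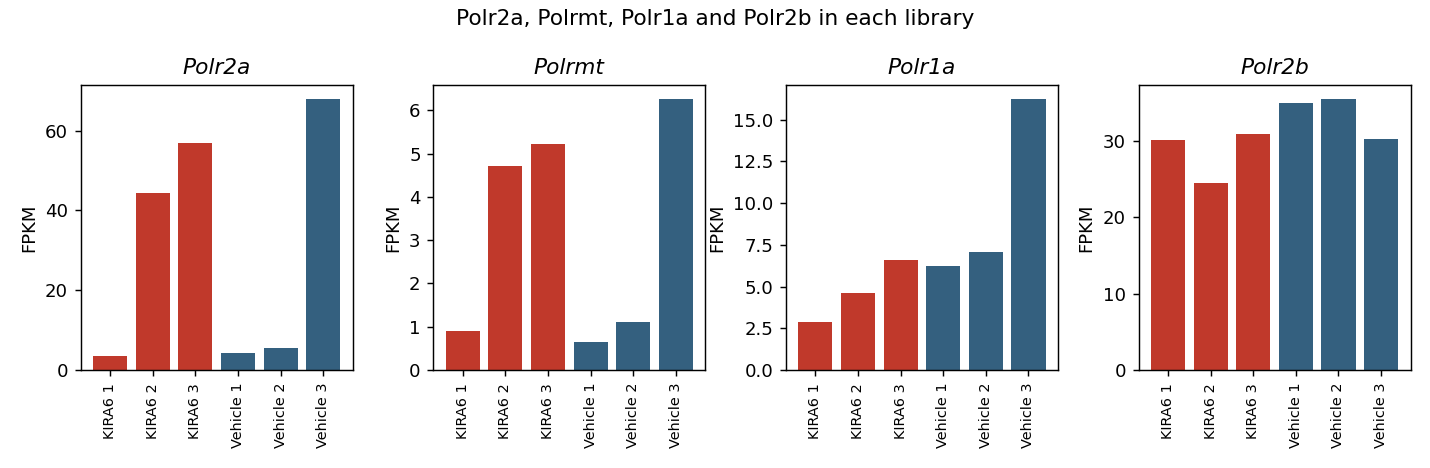
FPKM of Polr2a, Polrmt, Polr1a and Polr2b in each library (bars, 1 per library, axes from 0), KIRA6 in red and Vehicle in blue. For Polr2a and Polrmt the libraries KIRA6 2, KIRA6 3 and Vehicle 3 stand above the other 3, and Polr2b shows no such split.

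Between the polymerases, the genes of the next-largest subunits can be compared per length within each library, with the overlap of Polr2b and Igfbp7 bearing on every ratio that has Polr2b. The ratio of Polr1b to Polr2b was 0.158, 0.173 and 0.149 in the KIRA6 libraries, against 0.439, 0.486 and 0.570 in the Vehicle libraries. Polr1b was thus lower relative to Polr2b in every KIRA6 library, by 1.64 on the log2 scale (kira6 minus vehicle −1.64, two-sided exact permutation p = 0.1, the smallest that this design allows). The ratio of Polr3b to Polr2b was 0.335, 0.428 and 0.418 in the KIRA6 libraries, against 0.330, 0.337 and 0.379 in the Vehicle libraries, and these groups overlapped (exact permutation p = 0.3). Within Pol III, the ratio of Polr3a to Polr3b was 0.334, 0.301 and 0.343 in the KIRA6 libraries, against 0.469, 0.512 and 0.670 in the Vehicle libraries, with no overlap (exact permutation p = 0.1). Over the 7 ratios computed, Benjamini-Hochberg adjustment turned each exact permutation p of 0.1 into 0.175, and none can pass a threshold of 0.05 in this design.

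Summed over the genes found in a single polymerase, the Pol I level was 47.9, 38.5 and 36.1 FPKM in the KIRA6 libraries, against 73.2, 70.8 and 63.7 FPKM in the Vehicle libraries. Cd3eap is in neither the Pol I sum nor the Pol I median. The largest part of this sum in every library was Polr1h, which was not called. Polr1h had 31.91, 22.39 and 18.02 FPKM in the KIRA6 libraries, against 33.8, 29.23 and 18.53 FPKM in the Vehicle libraries. The Pol III sum was 77.4, 69.1 and 68.5 FPKM in the KIRA6 libraries, against 103.7, 105.6 and 84.2 FPKM in the Vehicle libraries. The Pol II sum was 337.6, 343.5 and 340.0 FPKM in the KIRA6 libraries, against 398.5, 389.5 and 400.0 FPKM in the Vehicle libraries. It too was lower in every KIRA6 library, so all of these sums were lower with KIRA6. Without Polr2a, whose level splits the libraries, the Pol II sum was 334.0, 299.0 and 283.1 FPKM in the KIRA6 libraries, against 394.1, 384.0 and 332.0 FPKM in the Vehicle libraries, and the groups then overlapped. Median log2 fold changes were −0.94 for Pol I, −0.35 for Pol III and −0.21 for Pol II, against 0.16 for all tested genes. The order of Pol I below Pol III below Pol II was also found with median-ratio scaling (−1.11, −0.51 and −0.40) and with the side term (−1.19, −0.31 and −0.23). These are descriptions of few genes, and the difference between the polymerases as sets was not tested.

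**Figure D4:**
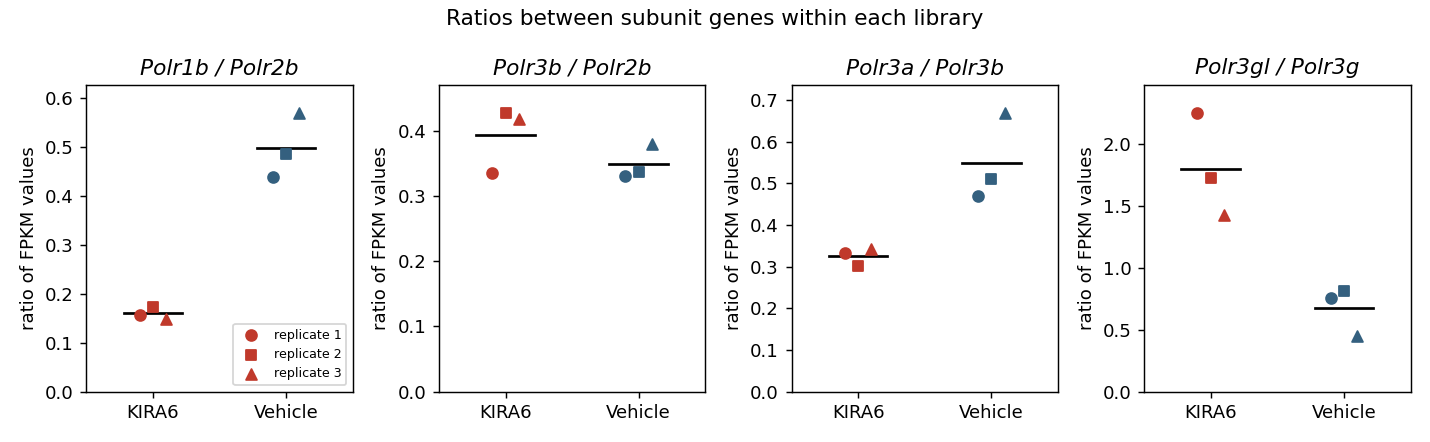
Ratios of FPKM between pairs of subunit genes within each library (points, marker by replicate; horizontal lines, group means; axes from 0), KIRA6 to the left of Vehicle. Polr1b over Polr2b and Polr3a over Polr3b are lower and Polr3gl over Polr3g is higher in all 3 KIRA6 libraries, and Polr3b over Polr2b overlaps.

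Polr1has (chromosome 17, 37269484 to 37276517) begins beside the start of Polr1h and runs away from it on the other strand, and the 2 genes do not overlap in the deposited coordinates. Polr1has had 3.01, 2.5 and 2.56 FPKM in the KIRA6 libraries, against 1.67, 1.49 and 1.1 FPKM in the Vehicle libraries. It rose by 0.74 ± 0.17 on the log2 scale (limma SE, adjusted p = 0.02403), while Polr1h itself was not called. The call ended without Vehicle 2 (adjusted p = 0.07915), KIRA6 1 (0.06093), KIRA6 2 (0.0797) or KIRA6 3 (0.06779), with median-ratio scaling (0.05174) and with quantile normalization (0.266), in a range of 4.486e-06 to 0.266.

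Of 16 tested factors of Pol III transcription 3 rose (18.8%) and 1 fell (6.2%), near the 15.6% and 7.98% of all tested genes, with a median log2 fold change of −0.04. Maf1, the repressor that binds Pol III and keeps it from its templates, had 43.25, 39.92 and 32.88 FPKM in the KIRA6 libraries, against 13, 14.9 and 11.85 FPKM in the Vehicle libraries. Every KIRA6 library was above every Vehicle library, with a log2 fold change of 1.51 ± 0.16 (limma SE, adjusted p = 0.001745), called in all 19 alternatives. The others called by smallest p were Snapc2, of the complex that serves small nuclear RNA genes, which rose by 0.71, and Gtf3a, the factor for the smallest ribosomal RNA, which fell by 0.53 on the log2 scale. Snapc2 was not called without Vehicle 1, Vehicle 2 or KIRA6 2 (adjusted p = 0.07351, 0.09249 and 0.08266), nor with median-ratio scaling (0.06364; 2.563e-07 to 0.09249 over 19 alternatives). Gtf3a was not called in the 5 fits that left out a library other than Vehicle 3 (adjusted p = 0.05608 to 0.09772). The remaining call, Snapc5 of the same complex, rose by 0.61 and was not called in 8 of 19 alternatives.

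Of 7 tested Pol I initiation factors 2 fell (28.6%, against 7.98% of all tested genes) and 0 rose, while 5 of the 7 had positive log2 fold changes and the median was 0.10. Taf1b, of the same promoter factor as Taf1a, was not called but had 11.1, 9.46 and 9.01 FPKM in the KIRA6 libraries, against 7.26, 6.33 and 4.18 FPKM in the Vehicle libraries (log2 fold change 0.72, adjusted p = 0.05502). Rrn3, which recruits Pol I to ribosomal DNA, had 27.76, 20.94 and 20.78 FPKM in the KIRA6 libraries, against 54.24, 57.93 and 36.45 FPKM in the Vehicle libraries. No KIRA6 library overlapped with Vehicle, and the log2 fold change was −1.07 ± 0.22 (limma SE, adjusted p = 0.01622). The other was Taf1a, with −0.72 (adjusted p = 0.0246), of the factor that positions Pol I at its promoter. Without Vehicle 1, Vehicle 2, KIRA6 2 or KIRA6 3 neither was called, with adjusted p of 0.05835, 0.06845, 0.07633 and 0.06666 for Rrn3 and 0.07874, 0.09023, 0.09999 and 0.07376 for Taf1a, and Taf1a was also not called without KIRA6 1 (0.05821). Among 10 assembly factors 2 fell (20%, against 7.98% of all), with a median log2 fold change of −0.07. They were the ATPase genes Ruvbl2 (log2 fold change −0.89, adjusted p = 0.005936) and Ruvbl1 (−0.89, adjusted p = 0.017), whose complex helps to build polymerases and other large complexes. Ruvbl2 was called in all 19 alternatives, and Ruvbl1 was not without Vehicle 1, Vehicle 2, KIRA6 2 or KIRA6 3 (adjusted p = 0.06389, 0.0756, 0.08034 and 0.06567).

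Of 18 tested general factors of Pol II 1 rose and 1 fell (5.6% each, below the 15.6% and 7.98% of all tested genes), both of TFIIA, and the median log2 fold change was −0.17. Gtf2a1 had 5.68, 6.52 and 7.73 FPKM in the KIRA6 libraries, against 3.42, 3.25 and 2.72 FPKM in the Vehicle libraries, and was called in all 19 alternatives. Gtf2a2 had 16.9, 15.83 and 15.03 FPKM in the KIRA6 libraries, against 24.16, 25.88 and 23.73 FPKM in the Vehicle libraries, and was not called without Vehicle 1, Vehicle 2 or KIRA6 2 (adjusted p = 0.05385, 0.07957 and 0.06847). Of 23 tested pausing and elongation factors 2 rose (8.7%, against 15.6% of all) and 0 fell (5 had an unadjusted p below 0.05), with a median log2 fold change of 0.06. Hexim1, which holds the elongation kinase P-TEFb inactive, had 18.35, 14.78 and 17.76 FPKM in the KIRA6 libraries, against 6.33, 6.28 and 4.88 FPKM in the Vehicle libraries (log2 fold change 1.47, adjusted p = 0.001999), called in all 19 alternatives. Aff4, the scaffold of the super elongation complex, was close to the threshold (0.66, adjusted p = 0.04472). It was not called without Vehicle 1 (0.1026), Vehicle 2 (0.1502), Vehicle 3 (0.0535), KIRA6 2 (0.1171) or KIRA6 3 (0.09117) nor in 5 other alternatives, in a range of 4.477e-06 to 0.1502. Of 7 mitochondrial transcription factors 1, Mterf2, rose (14.3% of the list, against 15.6% of all; log2 fold change 0.90, adjusted p = 0.0212), a call lost without Vehicle 1 (0.0718), KIRA6 2 (0.09117) or KIRA6 3 (0.0589) and with quantile normalization (0.1393).

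Genes of the MYC and MAX network, listed because MYC is known to act on polymerase genes, gave 3 increases (42.9%) and 2 decreases (28.6%) among 7 tested, against 15.6% and 7.98% of all. Myc had 12.79, 23.01 and 21.79 FPKM in the KIRA6 libraries, against 30.51, 34.18 and 97.6 FPKM in the Vehicle libraries. The groups did not overlap, but Vehicle 3 stood far above the rest and the log2 fold change of −1.31 ± 0.47 (SE) was not called (adjusted p = 0.09095). Without Vehicle 3 the log2 fold change of Myc was −0.78. Myc was called lower with the side term (−1.70, adjusted p = 3.165e-05), the GC and length correction (−1.49, adjusted p = 0.03921) and 3 other alternatives, in a range of 3.165e-05 to 0.1947 over 19. Mxd4, whose product competes with MYC for MAX, had 9.4, 7.63 and 7.77 FPKM in the KIRA6 libraries, against 0.63, 0.84 and 0.55 FPKM in the Vehicle libraries. That was among the widest gaps of the genes named here, with a log2 fold change of 2.90 ± 0.17 (limma SE, adjusted p = 0.0004325), called in all 19 alternatives. Mxd1, of the same family, had 1.64, 1.4 and 1.45 FPKM in the KIRA6 libraries, against 0.22, 0.13 and 0.21 FPKM in the Vehicle libraries (log2 fold change 1.54, adjusted p = 0.001368). Mxd1 passed the filter of 0.5 FPKM only through its KIRA6 libraries, so its place among the increases depends on the difference itself. It was tested in 18 of the 19 alternatives. Mlx, a MAX-like partner, fell by 0.98 on the log2 scale (adjusted p = 0.007076). The other calls were Mxi1, which rose by 0.80 (adjusted p = 0.007518), and Max, which fell by 0.65 on the log2 scale (adjusted p = 0.01123) but was not called without Vehicle 2 (0.06647) or KIRA6 2 (0.06024).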

How the data were processed

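Poly(A) RNA of 4T1 cells was sequenced from strand-specific libraries, per the labels' protocols. The authors deposited FPKM per gene and library to 2 decimals, with exonic length and coordinates. The submitters' processing notes list GRCm39 with DESeq2 1.34.0, HTSeq 0.6.1, HISAT2 2.2.1 and cutadapt 1.9.1, with no settings. Depth was recovered from the steps between FPKM values of genes shorter than 200 bases, of which 100% of 173 to 246 per library lay within 0.1 fragment of a whole number.

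Values were analysed as log2(FPKM + 0.5) by limma 3.58.1 (R 4.3.3; intensity trend, robust empirical Bayes, two-sided), without other covariates, in the 11778 genes whose mean reached 0.5 FPKM, and Benjamini-Hochberg adjustment covered all of them. Fold changes on this scale understate those of low genes. Calls needed an adjusted p below 0.05. Members and gene lists were chosen with earlier results of these data known, so no p was adjusted over a list and no set was tested. Each library's value is given for called members, the large subunits, Polrmt, Polr3g and Polr3gl, and other lists have up to 3 called genes by smallest p, with Maf1 and Myc. Polr2m, Cd3eap, Snapc5, Mxi1, Max, Taf1b, Fbxo10, Igfbp7, Dok4 and Tbcb were added after their values were seen. Counts cover all members, of which 1 is not reported here by name or value; the Pol II sum is given with and without Polr2a. The fit was run on simulated data with independent noise in each library. That simulation lacked the shared axis, so it does not show how the fit performs on these data. GC content came from GENCODE M21 transcripts by gene identifier (98.9% of tested genes). Alternatives varied the pseudocount, filter, scaling, moderation, weights and blocking and dropped single libraries; dropping KIRA6 1 with Vehicle 3, the side term and the correction for GC and length were chosen after seeing the data.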

Additional observations from a re-analysis of the deposited data

How the results depend on the processing

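Polr1b and Polr3d were called lower in all 19 alternatives, and no called member changed direction in any. Deviations of same-numbered libraries correlated at 0.762, −0.469 and 0.738 for replicates 1, 2 and 3. Both libraries of replicate 1, and both of replicate 3, lay on the same side of the shared axis. Those of replicate 2 lay on opposite sides, so the signs of these correlations match the sides. Whether same-numbered libraries were paired was not tested. The replicate block called 4423 genes (2883 higher, 1540 lower), and 2 members higher and 12 lower, among them Polr1a (adjusted p = 0.004838), Polr2c (0.03184), Polr2d (0.03622) and Polr2g (0.02521); Myc was also called (0.02968). The cause of the changes below was not tested. With single libraries left out, calls ran from 1211 to 3392 over all genes (817 to 2064 higher, 394 to 1328 lower) and from 2 to 12 over members (0 to 2 higher, 2 to 10 lower). In those fits median log2 fold changes ran from −1.19 to −0.53 for Pol I, −0.28 to −0.19 for Pol II, −0.43 to −0.30 for Pol III and −0.35 to −0.13 for shared subunits. Without a low-value filter 5 members were lower, as were 3.2% of all genes then tested. Median-ratio scaling called 1438 genes lower and 1 member higher, with medians of −1.11 for Pol I, −0.40 for Pol II, −0.51 for Pol III and −0.36 for shared subunits. Quantile normalization called 1132 genes and 0 members higher, with medians of −1.11 for Pol I and −0.60 for Pol III. Array weights ran from 0.1038 to 34.14, with most weight on Vehicle 2 and KIRA6 2, which lie on opposite sides of the axis. Their estimation stopped short of its tolerance. The fit with these weights called 10003 genes (6046 higher, 3957 lower) and 28 members (5 higher, 23 lower), with medians of −0.56, −0.37 and −0.45 for Pol I, Pol II and Pol III. Without KIRA6 1 and Vehicle 3, where axis and treatment coincide, 6610 genes (4227 higher, 2383 lower) and 20 members (4 higher, 16 lower) were called, with medians of −0.63 for Pol I, −0.46 for Pol III and −0.38 for shared subunits. The side term called 5826 genes (3709 higher, 2117 lower), with a Pol I median of −1.19. The GC and length correction called 1665 genes and 13 members lower, with medians of −1.07, −0.36, −0.53 and −0.38 for Pol I, Pol II, Pol III and shared subunits. Members not called in the fit without added terms changed sign as follows. Polr2i had −0.14 with median-ratio scaling, −0.067 without KIRA6 2 (up to 0.14 without other single libraries) and −0.16 with the GC correction. Polr3k had −0.11 with median-ratio scaling, −0.20 with array weights, −0.26 without Vehicle 3, −0.029 without KIRA6 1 (up to 0.26 without other single libraries), −0.36 without both and −0.086 with the GC correction. Polr2k had 0.015 with quantile normalization, 0.058 without Vehicle 1, 0.011 without KIRA6 3 (down to −0.35 without other single libraries) and 0.035 with the side term. Polr2e had 0.0087 with quantile normalization and Polr2l 0.056 with array weights. Polr1h had 0.010 without Vehicle 1, 0.019 without KIRA6 3 and 0.068 with the side term. Polr3c had 0.061 without KIRA6 3 (down to −0.092 without other single libraries) and 0.031 with the side term. With the side term Polr1c had 0.0084, Polr2a −0.42 and Polrmt −0.13. Polrmt had an estimated 55 to 546 fragments, fewer than Polr2a. The called risers Polr1has and Polr3gl had 35 to 110 and 70 to 216.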
